A study of Mus musculus with 18 samples.

Results

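The 79 genes described here encode subunits of the mitochondrial respiratory chain and of ATP synthase, together with the complex I assembly factors whose symbols begin with Ndufaf. They were taken from 19939 genes on the array by symbol (Nduf, Sdha to Sdhd, Uqcr, Cox4 to Cox8 and Atp5), leaving out 10 genes for cytochrome oxidase subunits with tissue-specific isoforms and for Ndufa4 and its relative. They comprised 34 complex I subunits, 7 complex I assembly factors, 4 complex II subunits, 8 complex III subunits, 9 complex IV subunits and 17 ATP synthase subunits. RNA of 18 samples, 3 biological replicates in each of 6 groups, was hybridised to Affymetrix mouse arrays with probes along the whole transcript, 1 sample per array. The values are log2 signals, so a difference of 1 is a doubling, and each gene is represented by its brightest probe set.

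The mice had a C57BL/6 background and ate chow. The muscle experiment used soleus and quadriceps of mice that carried a skeletal-muscle Cre recombinase and had been given tamoxifen for 3 days before harvest. In the knockout (KO) groups EglN1 was floxed, whereas the wild-type (WT) groups had the same Cre and the same tamoxifen with EglN1 intact. The title of the series speaks of smooth muscle, whereas the sample labels speak of skeletal muscle and heart, so which cells lost EglN1 is not settled by the labels. They name neither the promoter of the Cre nor the age or sex of the mice. Numbers in the labels join each soleus array to 1 quadriceps array, which was read as 1 mouse giving both muscles, so the muscle groups come from 3 KO and 3 WT mice. The heart experiment compared hearts of EglN1 WT mice given FG-4497, an inhibitor of the EglN enzymes, at 50 mg/kg intraperitoneally, with hearts of vehicle-treated mice; the time between dose and harvest is not given in the sources used here.

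The respiratory chain sits in the inner mitochondrial membrane. Complex I (NADH dehydrogenase) and complex II (succinate dehydrogenase) pass electrons to ubiquinone, complex III (cytochrome bc1) passes them to cytochrome c, and complex IV (cytochrome c oxidase) reduces oxygen; ATP synthase uses the resulting proton gradient to make ATP. Most subunits are encoded in the nucleus, and muscles that work continuously, such as the heart and the slow-twitch soleus, are rich in mitochondria compared with fast-twitch muscle such as the quadriceps. EglN1 is a prolyl hydroxylase that marks the hypoxia-inducible factors for degradation when oxygen is available, and these factors are known to act on mitochondrial respiration.

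Promoters of 6 members are shown because these genes carry the tissue patterns described below. The first 3 are the genes for subunit c of ATP synthase, which encode the same mature protein; Atp5g1 and Atp5g3 were highest in heart and Atp5g2 was lowest there. Sdhd (a membrane anchor of complex II) and Ndufb3 (an accessory subunit in the membrane arm of complex I) were highest in soleus, and Uqcr11 (a small subunit of complex III) was higher in heart by the widest margin against soleus. The windows come from RefSeq on build GRCm38.p6 and run from 250 bases before the annotated start to 50 bases after it, written 5′ to 3′ on the strand of the gene. Their positions are chr11:96075582-96075881, minus strand (Atp5g1); chr15:102670998-102671297, minus strand (Atp5g2); chr2:73911277-73911576, minus strand (Atp5g3); chr9:50603800-50604099, minus strand (Sdhd); chr1:58586147-58586446, plus strand (Ndufb3) and chr10:80406772-80407071, minus strand (Uqcr11). Capitals mark matches to letter strings typical of 4 factors known to act on mitochondrial genes.
Atp5g1: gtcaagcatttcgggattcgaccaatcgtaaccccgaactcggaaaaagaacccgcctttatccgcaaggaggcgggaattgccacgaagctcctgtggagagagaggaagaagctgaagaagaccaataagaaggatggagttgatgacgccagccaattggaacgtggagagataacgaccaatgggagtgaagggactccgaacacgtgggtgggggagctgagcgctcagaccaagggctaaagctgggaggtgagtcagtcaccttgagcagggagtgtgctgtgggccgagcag
Atp5g2: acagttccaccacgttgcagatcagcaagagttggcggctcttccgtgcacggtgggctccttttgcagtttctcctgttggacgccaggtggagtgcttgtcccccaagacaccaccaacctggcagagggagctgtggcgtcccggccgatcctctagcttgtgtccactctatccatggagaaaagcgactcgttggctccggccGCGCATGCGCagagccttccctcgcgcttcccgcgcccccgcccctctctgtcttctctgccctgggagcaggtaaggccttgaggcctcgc
Atp5g3: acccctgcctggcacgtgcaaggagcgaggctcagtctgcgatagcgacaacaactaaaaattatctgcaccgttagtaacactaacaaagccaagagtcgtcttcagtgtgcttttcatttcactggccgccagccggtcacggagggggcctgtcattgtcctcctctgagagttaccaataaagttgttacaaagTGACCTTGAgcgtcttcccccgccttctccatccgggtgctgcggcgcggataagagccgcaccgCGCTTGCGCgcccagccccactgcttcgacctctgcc
Sdhd: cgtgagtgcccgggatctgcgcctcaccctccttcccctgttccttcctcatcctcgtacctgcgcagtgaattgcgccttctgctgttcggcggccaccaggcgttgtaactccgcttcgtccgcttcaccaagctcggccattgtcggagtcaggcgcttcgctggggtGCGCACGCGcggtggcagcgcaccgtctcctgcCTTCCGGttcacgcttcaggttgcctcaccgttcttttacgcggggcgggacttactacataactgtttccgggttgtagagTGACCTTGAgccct
Ndufb3: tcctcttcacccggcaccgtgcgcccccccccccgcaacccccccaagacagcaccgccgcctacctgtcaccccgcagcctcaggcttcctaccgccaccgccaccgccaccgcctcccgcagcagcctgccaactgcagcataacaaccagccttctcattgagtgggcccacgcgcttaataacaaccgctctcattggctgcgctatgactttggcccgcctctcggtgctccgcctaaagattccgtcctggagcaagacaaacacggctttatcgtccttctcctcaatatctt
Uqcr11: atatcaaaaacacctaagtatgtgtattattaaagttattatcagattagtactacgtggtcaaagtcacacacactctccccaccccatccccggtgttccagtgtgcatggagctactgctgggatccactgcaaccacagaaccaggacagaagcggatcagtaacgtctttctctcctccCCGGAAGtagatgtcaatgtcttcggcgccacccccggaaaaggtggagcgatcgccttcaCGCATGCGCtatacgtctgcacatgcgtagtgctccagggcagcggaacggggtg

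The strings searched on both strands were GCGCANGCG for NRF1, CCGGAAG for GABPA, AAGATGGCG for YY1 and TCAAGGTCA for the estrogen-related receptors; ACGTG, the core bound by hypoxia-inducible factors, was counted but not capitalised. Promoter windows were given for 67 of the 79 genes, 72 windows in all. The NRF1 string was in 21 of the 72 windows (29.2%), against 9.28% of the 19116 windows of genes on the array and 6.25% of all 32851 windows. The GABPA string was in 16 (22.2%, against 12.1% and 8.86%) and the YY1 string in 7 (9.72%, against 1.94% and 1.4%). The estrogen-related receptor string was in 2 (2.78%, against 0.298% and 0.423%), those of Atp5g3 and Sdhd. ACGTG was in 17 windows (23.6%, against 21.6% and 19.6%), and it can overlap CACGTG, the E-box. In the printed windows, Sdhd held the NRF1, GABPA and estrogen-related receptor strings, Atp5g3 the NRF1 and receptor strings, Atp5g2 overlapping NRF1 strings on both strands, and Uqcr11 an NRF1 and a GABPA string, while Atp5g1 and Ndufb3 held none of the 4. Atp5g2 and Atp5g3 shared the NRF1 string, and their levels were ordered differently across tissues. A match is a description of these letters only.

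Before the comparisons, the labels were set against the data. Egln1 itself read 11.03, 11.07 and 11.12 in KO soleus against 11.22, 11.29 and 11.31 in WT soleus, and 10.67, 10.87 and 10.92 in KO quadriceps against 10.94, 10.95 and 10.99 in WT quadriceps. The KO arrays lay below all WT arrays of the same muscle, as they did for 5.84% of all tested genes in soleus and 10.8% in quadriceps. The differences were 0.20 (adjusted p = 0.438) and 0.14 (adjusted p = 0.470) on the log2 scale and did not pass the test. Egln1 therefore gives little check of the KO labels. Which part of the gene the probe set covers is not known here. The 10 slow fibre markers averaged 13.2 to 13.4 on the soleus arrays, 7.62 to 9.42 on the quadriceps arrays and 11.3 to 11.4 on the heart arrays. The 11 fast fibre markers averaged 12.5 to 13.3, 13.8 and 6.88 to 7.19 on the same arrays. The 10 cardiomyocyte markers averaged 11.98 to 12.14 in heart and 7.60 to 8.08 in muscle. The quadriceps arrays were uneven in slow fibre markers: Myh7 read 9.39 on KO replicate 2 and 8.60 on WT replicate 1, against 6.60 to 7.08 on the other 4.

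A gene was tested where its mean level reached the 40th percentile of all probe sets, and it was called where its limma p, adjusted over all genes tested by the Benjamini-Hochberg method, was under 0.05. Of the 79 members 78 were tested in each comparison. The exception was Cox7b2, a complex IV subunit known mainly from testis, which read between 3.88 and 4.58 on the 18 arrays. Cox6b2 and Cox8c, also known from testis, stood at the filter in muscle, with values of 6.16 to 6.50 and 6.07 to 6.48.

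**Figure D1:**
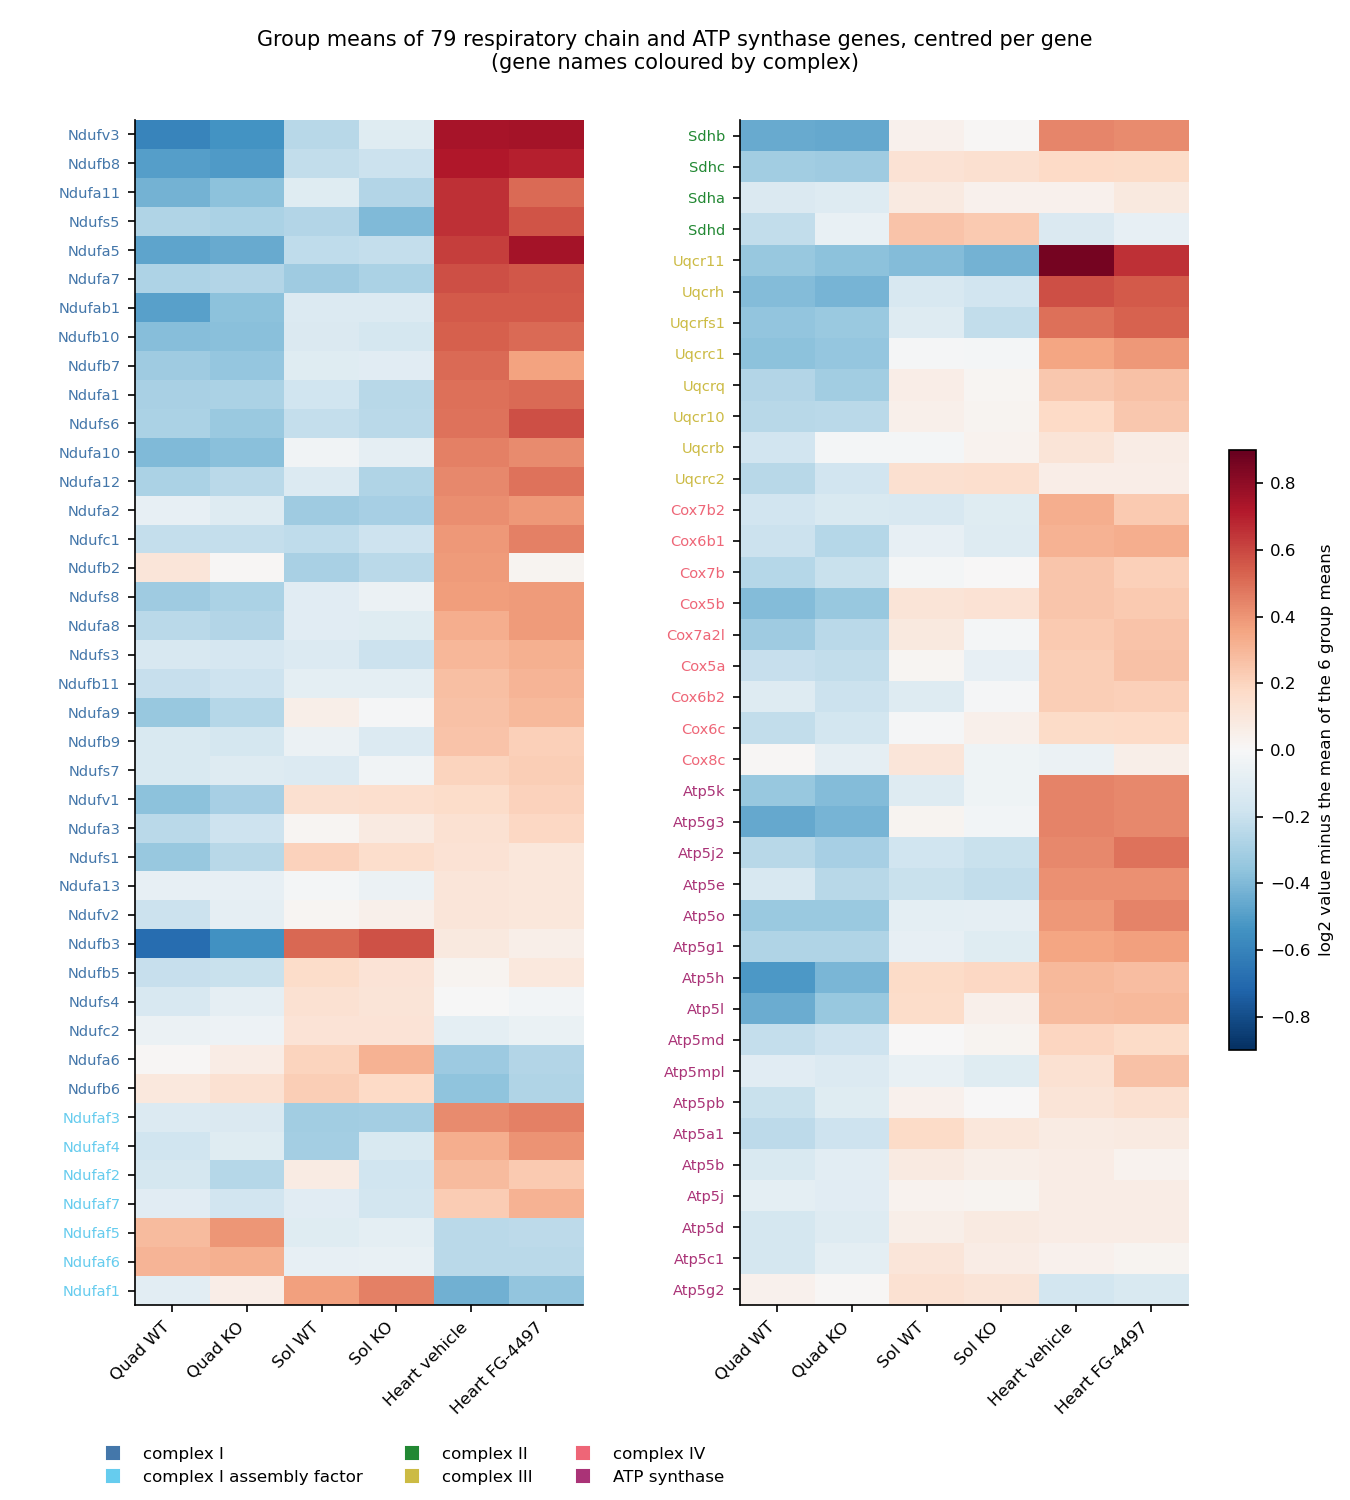
Group means of the 79 genes (rows, names coloured by complex) in the 6 sample groups (columns), each gene centred on the mean of its 6 group means, in log2 units. The 2 columns of each tissue look alike, and in most rows heart is the highest and quadriceps the lowest; among the genes that depart from this are Ndufb3, Ndufa6, Ndufb6, Ndufa2, Ndufaf1, Ndufaf3, Ndufaf5, Ndufaf6, Sdhd and Atp5g2.

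Soleus was compared with quadriceps in the WT mice. Respiratory chain and ATP synthase genes were mostly higher in soleus: 49 of 78 tested members were higher and 5 were lower, where 21.3% and 24.4% of all 13318 tested genes were. The median difference of the members was 0.22 on the log2 scale, against -0.0080 for all tested genes. Most differences were small, and 1 member, Ndufb3, exceeded a doubling. All 4 complex II genes were higher, as were 6 of 8 complex III, 5 of 8 tested complex IV, 12 of 17 ATP synthase and 20 of 34 complex I genes, whereas the 7 complex I assembly factors divided into 2 higher, 3 lower and 2 not called. No overlap between the muscles was found for 55 genes with soleus higher (25% of all genes) and for 5 with soleus lower (28%). When the fit also held the average of the slow fibre markers, 0 members were called. By itself that average separates the muscles completely, with 13.2 to 13.4 on soleus and 7.62 to 9.42 on quadriceps arrays. Such a fit can hardly tell the average from the muscle, so the loss of calls decides nothing. The median difference of the members in that fit was 0.18. In a bulk sample, more cells of a type and more RNA per cell cannot be told apart.

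Ndufb3 showed the largest difference. It read 9.37, 9.46 and 9.50 in WT soleus and 8.06, 8.12 and 8.54 in WT quadriceps, a difference of 1.20 (SE 0.097, adjusted p = 4.49e-07) or 2.3-fold. All soleus arrays lay above all quadriceps arrays. Among the core subunits of complex I, which include those that carry the flavin and iron-sulfur centres, Ndufv1 (the NADH-binding subunit) and Ndufs1 (the largest iron-sulfur subunit) stood out. Ndufv1 read 12.19, 12.26 and 12.26 in soleus and 11.70, 11.73 and 11.74 in quadriceps, a difference of 0.51 (SE 0.049, adjusted p = 2.19e-06). Ndufs1 read 11.75, 11.92 and 12.03 against 11.16, 11.42 and 11.48, a difference of 0.55 (SE 0.080, adjusted p = 9.64e-05). In both genes the muscles did not overlap. Of the 6 core subunits measured, 4 were higher in soleus; Ndufs3 (0.023) and Ndufs7 (0.015) were not called.

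The accessory subunits of complex I were less uniform. Of 13 Ndufa subunits, 8 were higher and 1, Ndufa2, was lower in soleus; of 11 Ndufb and Ndufc subunits, 6 were higher and 1, Ndufb2, was lower. Ndufa2 read 10.52, 10.59 and 10.61 in soleus and 10.75, 10.85 and 10.86 in quadriceps, a difference of -0.25 (SE 0.054, adjusted p = 0.00191). Ndufb2 read 9.01, 9.05 and 9.49 and 9.53, 9.57 and 9.66, a difference of -0.40 (SE 0.12, adjusted p = 0.0156). The groups did not overlap in either gene, but the call of Ndufb2 was lost when WT soleus replicate 1 (-0.31), WT soleus replicate 2 (-0.33) or WT quadriceps replicate 1 (-0.35) was left out.

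The assembly factors help to build complex I and are not part of the finished enzyme. Ndufaf1, which acts on the membrane arm, was higher in soleus: it read 10.81, 11.11 and 11.15 against 10.51, 10.53 and 10.64 in quadriceps, a difference of 0.46 (SE 0.082, adjusted p = 0.000445). Ndufaf5, which modifies the core subunit Ndufs7, was lower: it read 7.63, 7.64 and 7.76 against 7.98, 8.11 and 8.13, a difference of -0.40 (SE 0.069, adjusted p = 0.000395). Ndufaf6 was lower by a like amount, with 7.57, 7.62 and 7.75 against 8.02, 8.02 and 8.04, a difference of -0.38 (SE 0.074, adjusted p = 0.000867). None of these 3 genes overlapped between the muscles. With the slow fibre covariate the sign of Ndufaf6 turned, to 0.25 in WT mice and 0.19 in KO mice. The calls of Ndufaf2 (0.23, adjusted p = 0.0176) and Ndufaf3 (-0.19, adjusted p = 0.0385) were close to the threshold. The call of Ndufaf2 was lost without WT soleus replicate 1 (0.22) or WT quadriceps replicate 3 (0.18), and that of Ndufaf3 without any 1 of 5 arrays (all WT soleus replicates and WT quadriceps replicates 2 and 3), with values from -0.22 to -0.14.

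Complex II had the largest median difference of the classes, 0.46. Sdhb, its iron-sulfur subunit, read 12.34, 12.35 and 12.44 in soleus and 11.79, 11.93 and 11.94 in quadriceps, a difference of 0.49 (SE 0.057, adjusted p = 1.39e-05). The membrane anchors Sdhd and Sdhc differed by 0.47, adjusted p = 7.85e-05 and 0.44, adjusted p = 4.29e-05. Sdha, the flavoprotein that binds succinate, differed least, by 0.21 (SE 0.056, adjusted p = 0.00676). In complex III the Rieske iron-sulfur protein Uqcrfs1 differed by 0.24, adjusted p = 0.00152 and the core protein Uqcrc2 by 0.39, adjusted p = 7.07e-05, the largest of the complex. Uqcr11 was the only complex III gene below 0, at -0.05, adjusted p = 0.638; its second probe set gave 0.056, so its sign was not settled. In complex IV, Cox5b was farthest from 0, with 13.06, 13.08 and 13.09 against 12.53, 12.57 and 12.63 and a difference of 0.50 (SE 0.046, adjusted p = 1.61e-06). Cox7a2l, a factor known for joining complexes III and IV, differed by 0.41, adjusted p = 0.000101. The testis-type genes Cox6b2 (0.00028) and Cox8c (0.10) and the general form Cox6b1 (0.12) were not called.

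In ATP synthase the largest differences lay outside the catalytic head. Atp5h, subunit d of the peripheral stalk, read 12.93, 12.96 and 12.98 in soleus and 12.18, 12.26 and 12.35 in quadriceps, a difference of 0.69 (SE 0.053, adjusted p = 2.43e-07). Atp5l, subunit g in the membrane, read 11.23, 11.29 and 11.47 and 10.61, 10.71 and 10.82, a difference of 0.62 (SE 0.071, adjusted p = 1.17e-05); its other 5 probe sets gave 0.60 to 0.63. Of the 5 subunits of the catalytic F1 part, Atp5a1 (alpha) differed by 0.41, Atp5b (beta) by 0.22, Atp5c1 (gamma) by 0.26 and Atp5d (delta) by 0.21, all 4 called, while Atp5e (epsilon) was at -0.063, adjusted p = 0.375. Of the subunit c genes, Atp5g3 (0.49, adjusted p = 2.03e-05) and Atp5g1 (0.20, adjusted p = 0.00557) were higher in soleus and Atp5g2 (0.10, adjusted p = 0.132) was not called. The call of Atp5g1 was lost when quantile normalization was repeated (0.11).

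The same comparison was made in the KO mice, which are other animals. Here 45 members were higher in soleus and 3 lower, against 21.9% and 20% of all tested genes; 54 were higher and 4 lower with no overlap (24.4% and 22.2% of all genes). The 2 sets of calls shared 46 genes, all in the same direction, which is 85.2% of the 54 WT calls and 95.8% of the 48 KO calls. Signs were alike for 72 of the 78 genes. Of all 13318 tested genes, 6089 were called in the WT and 5577 in the KO mice. Shared calls and like signs were not counted over all genes, so whether the members stand out in this is not known. Of the 6 with opposite signs, Ndufa12 was called in the WT mice (0.16, against -0.031 in KO), and Atp5e, Ndufc1, Ndufs3, Ndufs5 and Ndufaf7 were called in neither. Ndufb3 was again the farthest, reading 9.48, 9.48 and 9.56 in KO soleus and 8.28, 8.37 and 8.51 in KO quadriceps, a difference of 1.12 (SE 0.097, adjusted p = 1.06e-06). Atp5h differed by 0.59, adjusted p = 1.31e-06, Sdhb by 0.47, adjusted p = 2.51e-05 and Cox5b by 0.47, adjusted p = 3.48e-06. Ndufaf5 and Ndufaf6 were again lower, at -0.48, adjusted p = 9.21e-05 and -0.39, adjusted p = 0.000852, and so was Ndufa2, at -0.19, adjusted p = 0.0123, whose call was lost without KO quadriceps replicate 2 (-0.17). Called in the WT mice alone were Atp5pb, Ndufa11, Ndufa12, Ndufaf2, Ndufaf3, Ndufb2, Ndufv2 and Uqcrfs1, and in the KO mice alone Atp5j and Ndufa6; no member passed the test of a difference between genotypes in these comparisons, as given below.

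**Figure D2:**
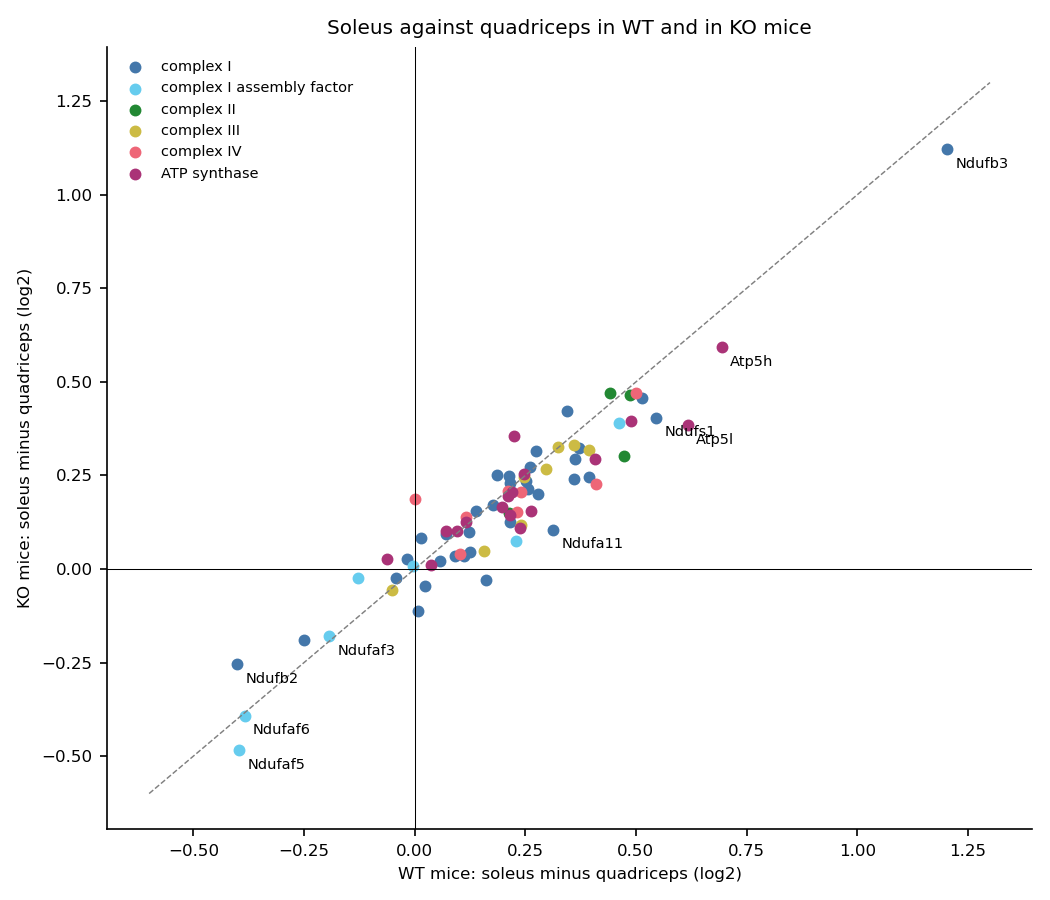
Log2 difference between soleus and quadriceps of the 78 tested genes in WT mice (x axis) and in KO mice (y axis), coloured by complex; the dashed line marks equal differences. The points lie along the line, with Ndufb3 at 1.20 and 1.12 at the upper end and Ndufaf5 at -0.40 and -0.48 at the lower end.

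Markers of some other lists differed between the muscles as well. The slow fibre markers were higher in WT soleus for 10 of 10 genes, and 9 of 11 fast fibre markers were lower. The endothelial markers were higher for 7 of 8 genes, with list means of 9.12 to 9.41 in WT soleus and 8.53 to 8.69 in WT quadriceps. Smooth muscle markers were higher in soleus for 3 of 5 genes in WT mice and 5 of 5 in KO mice, and brown adipocyte markers for 2 of 3 in both. The smooth muscle list includes Des, which read 13.3 to 13.5 on all muscle arrays and differed by 0.15, adjusted p = 0.0238 in KO mice. Of 2 Schwann cell markers tested in WT mice, Mbp was higher by 0.74, adjusted p = 5.48e-05, and Sox10 was not called (0.054, adjusted p = 0.487). Fibroblast markers were 1 higher and 1 lower of 7, and cardiomyocyte markers 3 higher and 1 lower of 9. In WT mice 0 of 7 macrophage and leukocyte, 0 of 5 adipocyte and 0 of 2 erythroid markers were called. Of 16 other mitochondrial genes tested, 7 were higher and 1 lower in WT soleus, where 21.3% and 24.4% of all genes were. Citrate synthase, Cs, a common measure of mitochondrial content, was higher by 0.36, adjusted p = 5.78e-05. The part of these cell types and of mitochondrial content in the differences of the members was not tested.

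**Figure D3:**
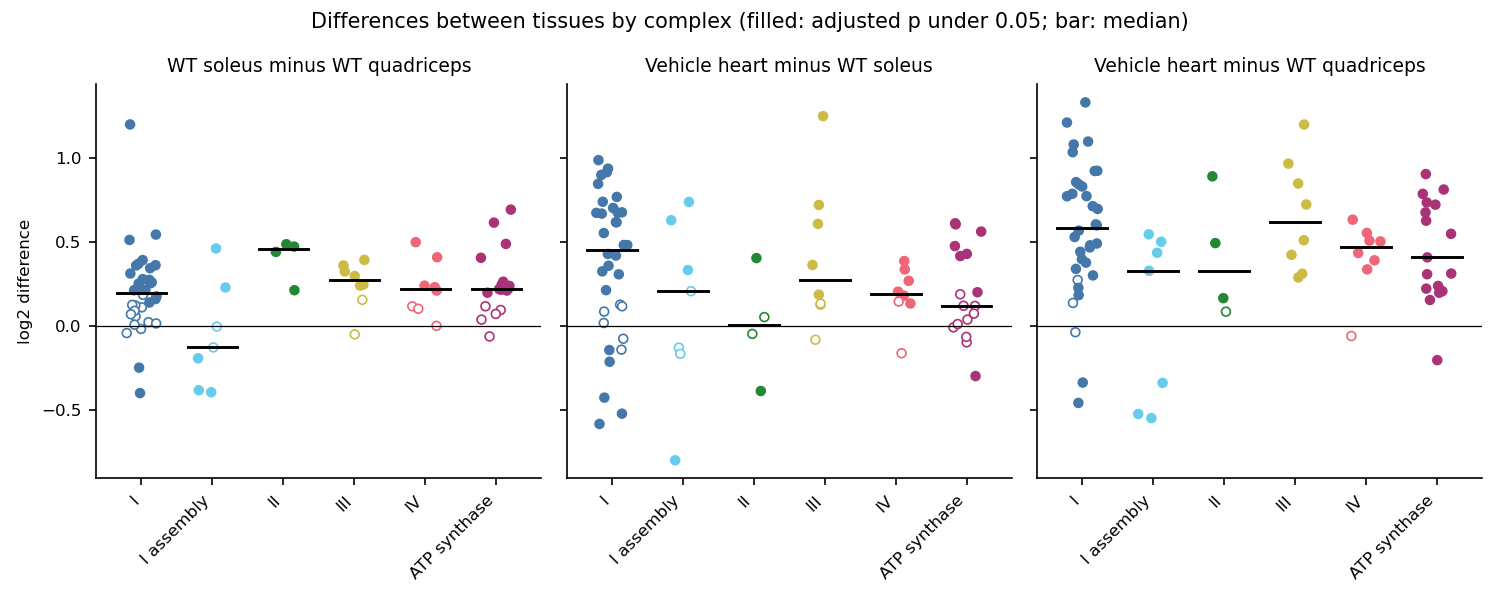
Log2 differences between tissues for the 78 tested genes, by complex (x axis); filled points passed the test (adjusted p under 0.05) and bars are class medians. Soleus exceeded quadriceps in most classes (left), heart exceeded soleus mainly in complexes I, III and IV (middle), and heart exceeded quadriceps in nearly all genes (right), while the assembly factors are spread on both sides of 0.

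The hearts of vehicle-treated mice were set against the muscles of WT mice. These groups come from 2 experiments, so tissue and experiment, including tamoxifen and Cre, cannot be told apart. Against WT quadriceps, 67 members were higher in heart and 6 lower, where 31.9% and 31.2% of 13373 tested genes were, with a median difference of 0.50. Against WT soleus, 45 were higher and 8 lower, where 29.6% and 27.2% of all tested genes were, with a median difference of 0.24 (all genes: 0.035). Complex I and ATP synthase stood on different levels in the second comparison: their median differences from soleus were 0.46 and 0.12. With no overlap, heart was above soleus for 53 members (32.4% of all genes) and below it for 11 (30.2%), and above quadriceps for 68 (34.6%) and below it for 6 (33.3%). Both comparisons called 44 members higher and 4 lower in heart. The 2 comparisons share the heart arrays, and the share of all genes called in both was not counted. Against WT soleus, 8 of 8 endothelial, 8 of 10 cardiomyocyte, 4 of 7 macrophage and leukocyte and 3 of 3 brown adipocyte markers were higher in heart. Lower were 11 of 11 fast fibre, 4 of 10 slow fibre, 4 of 7 fibroblast, 4 of 5 adipocyte, 3 of 5 smooth muscle, 1 of 10 cardiomyocyte, 1 of 2 erythroid and 1 of 2 Schwann cell markers. Against WT quadriceps, 8 of 8 endothelial, 8 of 10 cardiomyocyte, 7 of 10 slow fibre, 3 of 7 macrophage and leukocyte and 3 of 3 brown adipocyte markers were higher. Lower there were 11 of 11 fast fibre, 4 of 7 fibroblast, 4 of 5 adipocyte and 1 of 10 cardiomyocyte markers, while 1 fibroblast marker was higher and smooth muscle markers were 1 higher and 1 lower of 5. The 3 brown adipocyte markers tested were Cidea, Prdm16 and the cytochrome oxidase subunit Cox8b, while Ucp1 and Elovl3 of that list stood below the filter in every group. Within the slow fibre list, Tnnt1, Tnni1 and Tpm3 averaged 7.69, 7.11 and 9.14 in vehicle heart and 7.21, 7.10 and 9.22 in WT quadriceps. Tnnc1, Myl2 and Myl3 averaged 13.5, 13.9 and 13.7 in heart and 6.92, 7.55 and 7.67 in quadriceps. That list did not move as a whole, so its count does not show slow fibres in heart. Des was the smooth muscle marker called lower than in quadriceps (-0.43, adjusted p = 3.22e-06). The part of these cell types in the differences of the members was not tested.

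Complex I held most of the large differences. Ndufv3, a small subunit at the NADH-oxidising tip, read 9.64, 9.70 and 9.72 in vehicle heart, 8.57, 8.74 and 8.78 in WT soleus and 8.32, 8.35 and 8.39 in WT quadriceps. Heart exceeded soleus by 0.99 (SE 0.073, adjusted p = 2.23e-09) and quadriceps by 1.33 (SE 0.073, adjusted p = 2.05e-11), and none of the 3 tissues overlapped. Ndufb8, in the membrane arm, read 11.93, 11.97 and 12.01 in heart and exceeded soleus by 0.94, adjusted p = 8.97e-10 and quadriceps by 1.21, adjusted p = 1.44e-11. Ndufa7 (0.90 and 0.86), Ndufa5 (0.85 and 1.10), Ndufs5 (0.92 and 0.92) and Ndufa11 (0.77 and 1.08) were also higher than both muscles (soleus first). The core subunits differed less from soleus, with a median of 0.21: Ndufs8 (0.48), Ndufs3 (0.42) and Ndufs7 (0.33) were higher in heart, while Ndufv1 (0.018), Ndufv2 (0.086) and Ndufs1 (-0.077) were not called.

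Some complex I genes ran the other way. Ndufb6, another membrane-arm subunit, read 12.29, 12.31 and 12.49 in vehicle heart against 12.92, 12.95 and 12.97 in soleus and 12.81, 12.81 and 12.84 in quadriceps, differences of -0.59 (SE 0.080, adjusted p = 5.68e-06) and -0.46 (SE 0.080, adjusted p = 6.49e-05). Ndufa6, a subunit of the peripheral arm that binds the acyl carrier protein Ndufab1, read 10.75, 10.85 and 10.93 against 11.25, 11.40 and 11.45 and 11.06, 11.22 and 11.26, differences of -0.52 (SE 0.082, adjusted p = 2.8e-05) and -0.34 (SE 0.082, adjusted p = 0.00156). Heart lay below both muscles in these 2 genes with no overlap, while Ndufab1 itself was higher in heart, by 0.68 and 1.04. Ndufb3 was intermediate: heart read 8.92, 8.98 and 9.16, which is -0.43 (SE 0.11, adjusted p = 0.00238) from soleus and 0.77 (SE 0.11, adjusted p = 4.87e-06) from quadriceps. Smaller differences from soleus, Ndufc2 (-0.21) and Ndufb5 (-0.14), were called lower in heart, but the first was lost without WT soleus replicate 3 (-0.18) and the second without WT soleus replicate 2 or 3 or vehicle heart replicate 2 (-0.14 to -0.13).

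The assembly factors differed in direction. Ndufaf1 read 10.08, 10.27 and 10.31 in heart, -0.80 from soleus (SE 0.088, adjusted p = 3.86e-07) and -0.34 from quadriceps (SE 0.088, adjusted p = 0.00252), the farthest below soleus of all members. Ndufaf3 and Ndufaf4, which act together early in assembly, were higher in heart than in soleus by 0.74 and 0.63 and than in quadriceps by 0.55 and 0.50. Ndufaf5 and Ndufaf6 were lower in heart than in quadriceps, at -0.53, adjusted p = 2.88e-05 and -0.55, adjusted p = 3e-05, and not called against soleus (-0.13 and -0.17).

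In complex II the subunits parted. Sdhb was higher in heart than in soleus, 12.75, 12.77 and 12.82 against 12.34, 12.35 and 12.44, by 0.41 (SE 0.064, adjusted p = 3.25e-05). Sdhd was lower, 11.66, 11.72 and 11.75 against 11.97, 12.15 and 12.18, a difference of -0.39 (SE 0.073, adjusted p = 0.000185). Sdhc (0.053) and Sdha (-0.048) were not called. Against quadriceps, Sdhb was at 0.89, Sdhc at 0.49 and Sdha at 0.17, all called, and Sdhd was at 0.085, adjusted p = 0.322.

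In complex III, Uqcr11 read 12.98, 13.11 and 13.14 in heart, 11.73, 11.84 and 11.90 in soleus and 11.86, 11.88 and 11.88 in quadriceps. The difference from soleus was 1.25 (SE 0.12, adjusted p = 7.15e-08) or 2.38-fold, the largest of all members in that comparison, and its second probe set gave 1.46. Uqcrh, the hinge protein, and Uqcrfs1 were higher than in soleus by 0.72 and 0.61; the core proteins were at 0.36 (Uqcrc1, called) and -0.083 (Uqcrc2, not called). In complex IV, Cox6b1 was at 0.39, adjusted p = 3.26e-05, Cox7b at 0.27, adjusted p = 0.000703 and Cox5b at 0.13, adjusted p = 0.0373 against soleus. Cox6b2 was at 0.34, adjusted p = 0.00741, and this call was lost without WT soleus replicate 2 (0.24). Cox7a2l was at 0.15, adjusted p = 0.0703, and the mean of its probe sets gave 0.31, which was called; Cox8c was not called.

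The subunit c genes of ATP synthase differed in direction. Atp5g1 read 14.05, 14.05 and 14.09 in heart against 13.60, 13.64 and 13.66 in soleus and 13.40, 13.42 and 13.48 in quadriceps, and heart exceeded soleus by 0.43 (SE 0.054, adjusted p = 2.18e-06). Atp5g3 read 13.17, 13.24 and 13.27 against 12.78, 12.79 and 12.85 and 12.24, 12.36 and 12.36, and exceeded soleus by 0.42 (SE 0.064, adjusted p = 2.15e-05). Atp5g2 read 12.51, 12.52 and 12.65 against 12.84, 12.85 and 12.88 and 12.69, 12.78 and 12.81, and heart was lower than both muscles, with differences of -0.30 (SE 0.059, adjusted p = 0.000275) from soleus and -0.20 (SE 0.059, adjusted p = 0.00544) from quadriceps. The other 2 probe sets of Atp5g2 both gave -0.28 against soleus; whether any of them reads a near-identical copy of the gene was not tested. Of the 5 F1 subunits, Atp5e alone was higher in heart than in soleus (0.61, adjusted p = 9.37e-08), and the other 4 lay between -0.10 and 0.011; against quadriceps all 5 were higher. Atp5j2 (0.61) and Atp5k (0.56), small subunits in the membrane part, and Atp5o (0.48) in the stalk were also higher than in soleus. Atp5h and Atp5l, which separated the muscles most, were not called between heart and soleus (0.12 and 0.12).

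**Figure D4:**
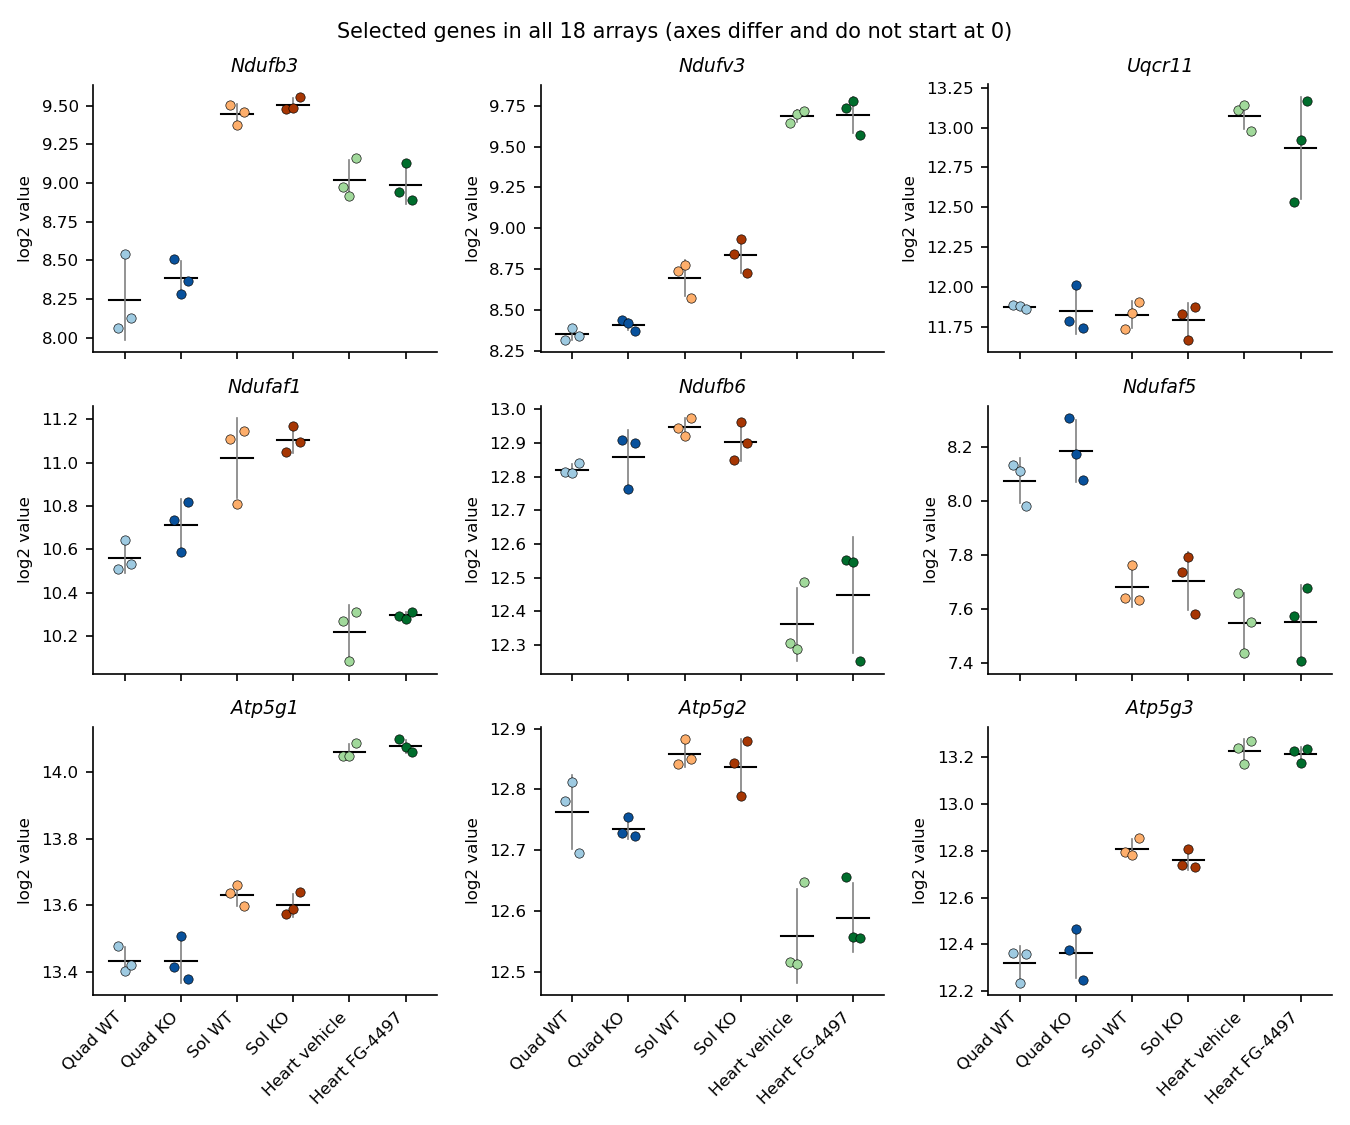
Log2 values of 9 genes on all 18 arrays by group; points are arrays, horizontal bars are means and vertical lines are 1 SD (n = 3), and the axes differ between panels and do not start at 0. Heart lies above all muscle arrays for Ndufv3, Uqcr11, Atp5g1 and Atp5g3 and below them for Ndufaf1, Ndufb6 and Atp5g2, and Ndufb3 is highest in soleus.

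Over all 18 arrays, the 6 heart arrays lay above all 12 muscle arrays for 44 of the 78 tested members, where 17.4% of all genes did, and below them for 4 (Atp5g2, Ndufa6, Ndufaf1 and Ndufb6), where 16.9% did. The 6 soleus arrays lay above the 6 quadriceps arrays for 43 (16.3% of all genes) and below them for 4, Ndufa2, Ndufaf3, Ndufaf5 and Ndufaf6 (16.4%). A full order of heart over soleus over quadriceps with no overlap was found for 24 members (4.83% of all genes): 9 in complex I, 1 in complex II (Sdhb), 4 in complex III, 5 in complex IV and 5 in ATP synthase. Ndufa2 and Ndufaf3 had the order heart, quadriceps, soleus (1.11% of all genes), and Ndufb3 the order soleus, heart, quadriceps (0.718%). The other 3 orders were found for 0 members: soleus, quadriceps, heart (1.83% of all genes), quadriceps, soleus, heart (5.62%) and quadriceps, heart, soleus (0.456%). These counts use the same arrays as the tests above.

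Loss of EglN1 was the question of the muscle experiment. In soleus, 0 of 78 tested members passed the test, where 0.18% of all genes (24 of 13318) did. An unadjusted limma p under 0.05 was found for 4 members and for 963 of the 13318 genes. Differences ran from -0.25 (Ndufaf2) to 0.17 (Ndufaf4), 33 above 0 and 45 below, with a median of -0.019. Ndufaf2, which helps attach the NADH-oxidising module, read 7.17, 7.26 and 7.41 in KO and 7.51, 7.54 and 7.55 in WT soleus, a difference of -0.25 (SE 0.078, adjusted p = 0.343). Ndufaf4 read 9.42, 9.43 and 9.55 against 9.22, 9.25 and 9.41, a difference of 0.17 (SE 0.069, adjusted p = 0.577). The groups did not overlap in either gene. That was so for 5 genes higher in KO (Atp5d, Ndufaf4, Ndufc1, Ndufs7 and Uqcrb), where 6.4% of all genes did so, and for 9 genes lower in KO (Atp5a1, Cox5a, Cox7a2l, Ndufa10, Ndufa11, Ndufaf2, Ndufs3, Ndufs5 and Uqcrfs1), where 5.84% did. A permutation test of 1 gene with 3 arrays a group cannot go below an exact p of 0.1.

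By complex, the soleus medians lay between -0.029 for complex III and 0.0066 for the assembly factors. The farthest in each were Ndufa11 (-0.15) and Ndufv3 (0.14) in complex I, Sdha (-0.046) and Sdhc (0.017) in complex II, Uqcrfs1 (-0.10) and Uqcrb (0.052) in complex III, Cox8c (-0.15) and Cox6b2 (0.11) in complex IV, and Atp5l (-0.12) and Atp5k (0.081) in ATP synthase. The 95% intervals of all 78 genes lay within 0.5 of 0 on the log2 scale (1.41-fold), and those of 73 within 0.3 (1.23-fold). The interval reaching farthest down was that of Ndufaf2 (-0.42 to -0.087).

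In quadriceps, again 0 of 78 members passed, where 0.683% of all genes did. An unadjusted p under 0.05 was found for 1543 of all 13318 genes and for 1 member. That was Uqcrb, a small complex III subunit, with 13.11, 13.17 and 13.22 in KO and 12.86, 13.05 and 13.12 in WT, a difference of 0.16 (SE 0.067, adjusted p = 0.387); the groups overlapped. Differences ran from -0.11 (Atp5e) to 0.16, 51 above 0 and 27 below, with a median of 0.018 (all genes: -0.016). Atp5e read 10.45, 10.53 and 10.55 in KO and 10.59, 10.62 and 10.65 in WT, with no overlap, and did not pass (-0.11, adjusted p = 0.53). It was the only gene with KO below WT and no overlap (10.8% of all genes), and 4 had KO above WT with no overlap, Atp5d, Cox6c, Cox7b and Ndufv1 (5.66%). Further from 0 within their complexes were Ndufb3 (0.14) and Ndufb2 (-0.10) in complex I, Ndufaf1 (0.15) and Ndufaf2 (-0.10) among the assembly factors, Sdhd (0.15) in complex II, and Atp5h (0.11) in ATP synthase. All 78 intervals lay within 0.5 of 0 and 72 within 0.3.

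Averaged over both muscles, 0 of 78 members passed (0.833% of all genes), with 2 at an unadjusted p under 0.05 (1519 of all 13318 genes). In this average 39 differences lay above 0 and 39 below. The extremes were Ndufaf2 at -0.18, adjusted p = 0.241 and Ndufaf1 and Ndufaf4 at 0.12 and 0.12. The difference between the KO effects in soleus and in quadriceps was tested as well. In that test 0 members passed (0% of all genes), with 2 at an unadjusted p under 0.05 (854 of all 13318 genes). Values ran from -0.23, adjusted p = 0.773 (Atp5l) to 0.19, adjusted p = 0.839 (Cox6b2).

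**Figure D5:**
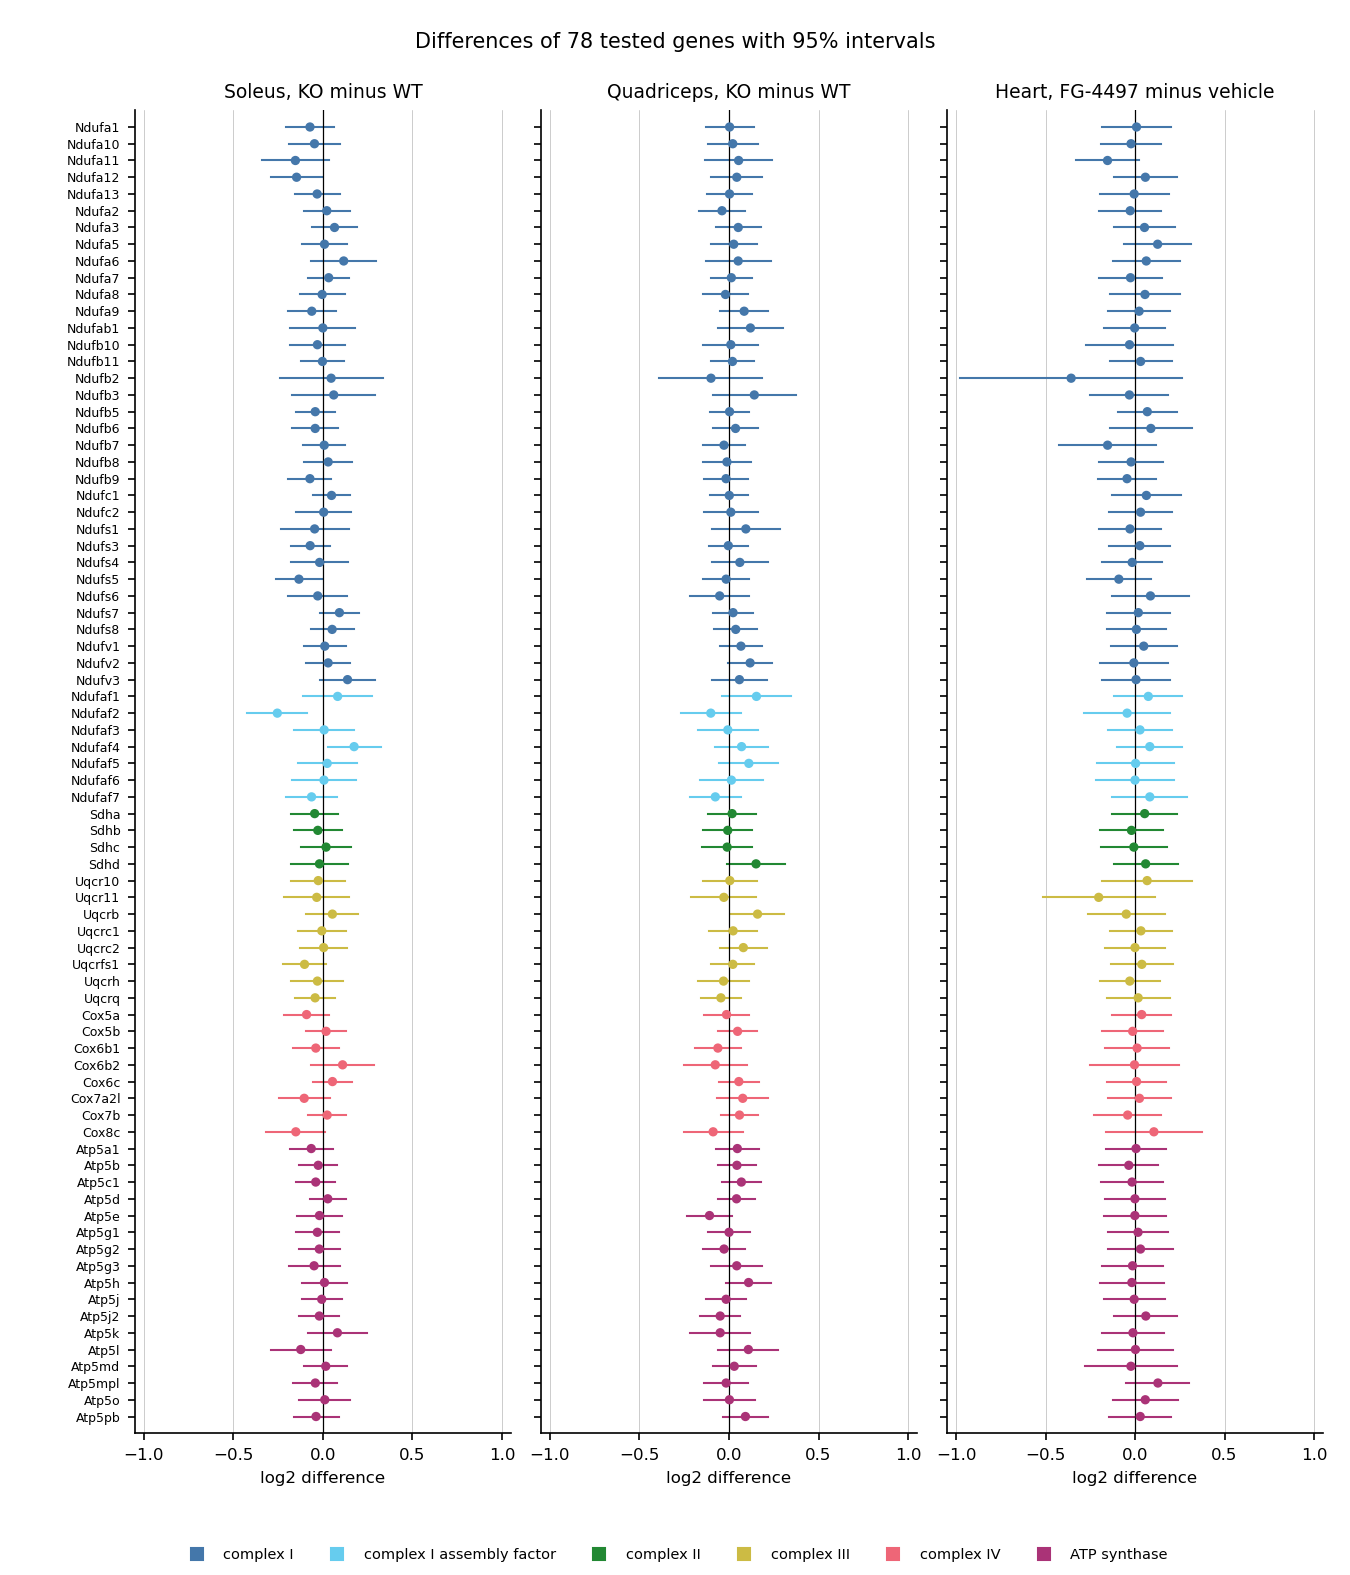
Log2 differences with 95% intervals of the 78 tested genes, ordered and coloured by complex, for KO minus WT in soleus (left) and quadriceps (middle) and for FG-4497 minus vehicle in heart (right). None of the 78 genes passed the test in any panel; the widest interval is that of Ndufb2 in heart, reaching -0.98.

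FG-4497 was compared with vehicle in heart. Here 0 of 78 tested members passed, where 1.77% of all genes (238 of 13431) did. An unadjusted p under 0.05 was found for 0 members and for 1428 of the 13431 genes. Differences ran from -0.36 (Ndufb2) to 0.13 (Atp5mpl), 42 above 0 and 36 below, with a median of 0.0056. Ndufb2 read 9.11, 9.12 and 10.28 after FG-4497 and 9.48, 9.99 and 10.11 after vehicle, a difference of -0.36 (SE 0.28, adjusted p = 0.79). Its groups overlapped, and 1 treated array lay above all vehicle arrays while the other 2 lay below them. Atp5mpl, a small subunit in the membrane part of ATP synthase, read 11.95, 12.02 and 12.05 against 11.83, 11.86 and 11.95, the groups meeting at 11.95, and did not pass (0.13, adjusted p = 0.685). Uqcr11 was the lowest complex III gene, with 12.53, 12.92 and 13.17 against 12.98, 13.11 and 13.14, a difference of -0.20 (SE 0.14, adjusted p = 0.738). Groups did not overlap for Atp5mpl and Ndufb5 with FG-4497 higher (8.38% of all genes) and for Ndufa11 and Ndufb9 with FG-4497 lower (7.09%). The intervals of 76 genes lay within 0.5 of 0 and those of 69 within 0.3. In these hearts the endothelial marker Cldn5 was higher by 1.44, adjusted p = 0.000164 and the erythroid marker Alas2 by 0.96, adjusted p = 0.00799, 1 of 8 and 1 of 2 tested markers of their lists, and Postn was the 1 of 7 fibroblast markers that was lower (-0.42, adjusted p = 0.0314). The other endothelial markers were not called and were mixed in sign. Pecam1, Kdr and Esam lay above 0, and Cdh5, Tie1, Emcn and Tek (-0.33, adjusted p = 0.149) lay below. The endothelial list median was -0.0053.

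The other genes of the pathway were counted from lists. In both KO muscles and in FG-4497 hearts, 0 of 46 tested assembly factors and electron carriers, 0 of 13 regulators, 0 of 16 other mitochondrial genes and 0 of 2 measured mitochondrially encoded genes passed. The largest KO difference among them was that of Cox18, which helps insert a complex IV subunit into the membrane, at 0.28 in soleus and 0.35 in quadriceps, with an average of 0.32, adjusted p = 0.0722. Between WT soleus and WT quadriceps, 19 of the 46 assembly factors and carriers were higher and 12 lower, where 21.3% and 24.4% of all genes were. Sdhaf4, which assists the assembly of succinate dehydrogenase, was higher in soleus by 1.38, adjusted p = 7.23e-08, beside the 4 higher complex II subunits, and lower in heart than in soleus at -1.59, adjusted p = 2.55e-09, where Sdhb was higher and Sdhd lower. Atpif1, the inhibitor of ATP synthase, was higher in heart than in soleus by 2.46, adjusted p = 9.09e-15 and than in quadriceps by 2.22, adjusted p = 3.24e-14, a larger difference than that of any ATP synthase subunit. Cyc1, the cytochrome c1 subunit of complex III, which the symbol rule does not reach, was higher in heart than in soleus by 0.51 and in soleus than in quadriceps by 0.39.

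Of the 13 regulators, 6 were higher and 5 lower in WT soleus than in WT quadriceps, where 21.3% and 24.4% of all genes were. Higher were the estrogen-related receptors Esrrg (2.42, adjusted p = 8.12e-09) and Esrrb (2.26, adjusted p = 2.65e-08) and the coactivator Ppargc1a (1.19, adjusted p = 2.75e-06), a known driver of mitochondrial gene expression in muscle. Lower were factors of mitochondrial DNA transcription: Tfam at -0.69, adjusted p = 0.000108, Tfb1m at -0.25, Tfb2m at -0.24 and the RNA polymerase Polrmt at -0.24, together with Yy1 at -0.25. In heart, 6 of the 13 were higher and 3 lower than in WT quadriceps, where 31.9% and 31.2% of all genes were. Against WT soleus, 4 were higher and 3 lower, where 29.6% and 27.2% of all genes were. Against quadriceps, Tfam was lower in heart at -1.38, adjusted p = 5.89e-09, while Ppargc1a was higher by 1.77, adjusted p = 2.7e-08. Against soleus, Esrrg was lower in heart at -0.72, adjusted p = 0.00023, and Ppargc1a was higher by 0.58, adjusted p = 0.00572. Nrf1 was not called between tissues, with 0.13 for soleus minus quadriceps and -0.15 for heart minus soleus. Of the mitochondrially encoded genes, ND3 and COX2 were higher in WT soleus than in WT quadriceps, by 0.28, adjusted p = 0.000394 and 0.21, adjusted p = 0.00724.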

How the data were processed

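Total RNA was extracted with TRIzol and hybridised to 18 Affymetrix whole-transcript mouse arrays. The authors deposited log2 signals made by RMA, per the submitters' processing notes; RMA summarises probes after quantile normalization, so shifts shared by most genes are removed. Which arrays were normalized together is not given in the sources used here. Of 35556 probe sets, 21789 named 1 gene, 1621 several and 12146 none in the platform annotation; those naming 1 gene covered 19939 genes, each taken at its brightest probe set. Cox7c and Ndufb4 appear only on probe sets naming several genes and are not reported. Array medians were 6.68 to 6.81, and the number of arrays limits the precision.

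Genes with a mean at or above the 40th percentile were tested with limma 3.58.1 in R 4.3.3, in 3 fits: the 12 muscle arrays (13318 genes), the 6 heart arrays (13431) and all 18 (13373). The muscle fits held the animal as a random block (duplicateCorrelation, correlation 0.17 and 0.20). Same-numbered arrays had correlations of their deviations from -0.00048 to 0.38, above 0.1 in 4 of 6 pairs. The steps were tested on simulated data. Alternatives covered the filter, normalization, array weights, probe set choice, blocks, a slow fibre covariate and leaving out each replicate. The rule for named members took, per comparison, up to 10 called in each direction by size, the extremes of each complex, the 2 farthest from the median of their complex between tissues, genes of multi-gene subunits and those below the filter; other members were named after their values were seen. The members and lists were chosen with earlier results of these data known. The NRF1 and YY1 strings were shortened by 1 letter after their counts had been seen.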

Additional observations from a re-analysis of the deposited data

How the results depend on the processing

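The KO and FG-4497 comparisons called 0 members under each alternative run. WT soleus against WT quadriceps called 54 members (48 to 53 with 1 replicate left out; 51 with the title number as a replicate block, 53 with the animal as a fixed block, 50 with no block), and KO soleus against KO quadriceps 48 (39 to 45; 41, 37 and 43). Vehicle heart called 53 against WT soleus (50 to 53; 53 with the replicate block) and 73 against WT quadriceps (70 to 73; 73 with that block). With the slow fibre level as a covariate, both soleus and quadriceps comparisons called 0; that level ran from 13.2 to 13.4 in soleus and 7.62 to 9.42 in quadriceps, so covariate and muscle can hardly be separated. Signs in that fit were compared for the members named by the rule and called without the covariate. They turned in WT mice for Ndufaf6 (0.25), Ndufaf3 (0.16), Ndufaf2 (-0.027) and Atp5g1 (-0.10), and in KO mice for Ndufaf6 (0.19) and Atp5g1 (-0.11). Sign changes of other members are not given here. With it the WT median was 0.18, and with the mean of all probe sets the median of heart minus soleus was 0.29. In the KO mice the call of Sdha (0.15) was lost with no filter, with no block and without any 1 of 5 arrays (0.12 to 0.17). With 3 arrays a group, differences under about 0.13 on the log2 scale were within the usual 95% interval of a member in muscle. With 1 more letter, the strings first searched, NRF1 was in 18 member windows and YY1 in 5, against 6.94% and 1.26% of the windows of genes on the array.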
